A study of Mus musculus with 12 samples.

Results

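The genes described here are 45 interferon-stimulated antiviral genes of the mouse, taken by gene name from a bulk RNA-seq table of 36254 genes. All 45 had a row in the table and all 45 passed the filter on low counts, which kept 23191 genes for testing. The study profiled orthotopic lung tumours, which are tumours grown in the lung itself, in 4 groups of 3 libraries whose names begin with C57 and give no fuller name of the mouse strain. Taurine libraries came from tumours treated with taurine and Proline libraries from tumours treated with proline. Model libraries came from tumours that carry neither treatment in their labels, and Control libraries from normal lung according to the series' design text, although their tissue label reads lung tumor like that of the other groups. The tumour cells, the dose, route and length of treatment, and the age and sex of the mice were not stated in the labels. The labels do not say that the 3 libraries of a group came from separate mice, so the p-values measure the spread between these libraries, part of which may be technical.

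Interferons are secreted when cells sense foreign or misplaced nucleic acid. Type I interferons bind the receptor chains Ifnar1 and Ifnar2, whose kinases activate a complex that holds Stat2 and Irf9 and binds interferon-stimulated response elements in promoters. Interferon gamma acts through gamma-activated sites and induces Irf1 and an overlapping set of genes. The proteins made in response sense viral RNA, degrade it, block its translation, or restrict virus entry and release, and in the lung both epithelium and immune cells can mount this response.

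The total count per library lay between 56542745 and 69456490. Levels are given as CPM, the count of a gene relative to its library's TMM-scaled total, which evens out total count but not gene length. Control libraries carried the defining markers of lung at levels far above the tumours: the summed level of 5 alveolar type 2 markers was 21544, 23987 and 22656 CPM in Control lungs and at most 649 CPM in any tumour. Among the tumours, that maximum stood in Proline 1 alone, against 4.49 to 43.2 CPM in the other 8 tumours. The summed level of 5 liver markers was 119 and 148 CPM in Model 1 and Model 2 and at most 2.97 CPM in the other 7 tumours. Summed skeletal muscle markers varied between 1.64 CPM in Proline 1 and 1566 CPM in Taurine 3.

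The promoters of these genes were searched for the core letters of both elements, GAAA, any 2 bases and GAAA again for the interferon-stimulated response element and TTCNNNGAA for the gamma-activated site, on both strands and with overlapping matches counted. RefSeq promoters on GRCm38.p6, running from 250 bases before to 50 bases after the start of the gene, were at hand for 34 of the 45 members. The response-element core occurred in 16 of the 34 (47.1%), against 3.99% of 27025 genes searched in the same way. TTCNNNGAA occurred in 8 of the 34 (23.5%), against 9.55% of the 27025 genes. A match is a description of these letters, not a site shown to be used. The promoter of Isg15, the ubiquitin-like protein of the response, is shown because it held 3 overlapping matches, the most of any member, and those of Ifit3 and Ifit3b because they share both of their matches and were identical at 99.2% of 260 aligned bases. They are printed 5′ to 3′ on the strand of the gene, with the matches to the response-element core or its reverse complement in capitals.
Isg15, chr4:156200769-156201068, minus strand: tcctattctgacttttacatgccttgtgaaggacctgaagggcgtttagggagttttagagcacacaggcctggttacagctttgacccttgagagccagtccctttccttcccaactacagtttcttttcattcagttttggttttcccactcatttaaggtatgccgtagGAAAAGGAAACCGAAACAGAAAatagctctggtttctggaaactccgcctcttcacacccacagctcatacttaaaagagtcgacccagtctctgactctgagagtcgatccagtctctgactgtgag
Ifit3, chr19:34583279-34583578, plus strand: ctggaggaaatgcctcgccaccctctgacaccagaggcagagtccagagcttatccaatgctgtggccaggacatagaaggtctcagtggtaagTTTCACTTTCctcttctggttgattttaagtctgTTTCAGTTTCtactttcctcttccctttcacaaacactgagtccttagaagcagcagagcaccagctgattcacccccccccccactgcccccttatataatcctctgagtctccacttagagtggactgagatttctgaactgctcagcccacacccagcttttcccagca
Ifit3b, chr19:34607707-34608006, plus strand: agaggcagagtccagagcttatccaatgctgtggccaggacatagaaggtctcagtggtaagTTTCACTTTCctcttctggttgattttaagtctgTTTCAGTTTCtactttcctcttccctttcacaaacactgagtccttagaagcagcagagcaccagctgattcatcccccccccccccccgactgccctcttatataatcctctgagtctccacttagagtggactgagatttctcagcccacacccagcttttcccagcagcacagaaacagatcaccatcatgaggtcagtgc
Shorter windows are shown for members of the other roles, chosen after the search was seen: the transcription factor Stat2, the sensors Ifih1 and Eif2ak2, the near-identical pair Oas1a and Oas1g, and Rsad2 and Bst2 of virus restriction, with capitals as above. For Irf1, which had no match to that core, the capitals mark TTCNNNGAA.
Stat2, chr10:128270261-128270300, plus strand: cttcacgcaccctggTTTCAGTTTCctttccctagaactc
Ifih1, chr2:62646206-62646238, minus strand: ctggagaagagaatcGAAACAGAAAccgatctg
Eif2ak2, chr17:78882530-78882569, minus strand: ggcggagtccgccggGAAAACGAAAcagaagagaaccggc
Oas1a, chr5:120907515-120907554, minus strand: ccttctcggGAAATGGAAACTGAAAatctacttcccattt
Oas1g, chr5:120887601-120887640, minus strand: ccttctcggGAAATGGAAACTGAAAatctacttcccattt
Rsad2, chr12:26456548-26456587, minus strand: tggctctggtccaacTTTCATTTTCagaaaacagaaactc
Bst2, chr8:71537572-71537611, minus strand: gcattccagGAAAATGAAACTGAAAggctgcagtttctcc
Irf1, chr11:53769909-53769947, plus strand: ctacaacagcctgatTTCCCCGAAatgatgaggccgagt
Cmpk2, the member with the lowest log2 fold change in Model tumours against Control lungs, held neither set of letters in its 300 bases, nor did Ifi44, Irf7, Irf9 and Oasl2 among others.

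Most of the antiviral genes were lower in untreated tumours than in normal lung. In Model against Control, 39 of the 45 fell at an adjusted p under 0.05 by edgeR's quasi-likelihood test, 1 rose and 5 did not pass. Falls were called for 29.3% of all genes tested and rises for 28.8%. The median log2 fold change of the 45 members was -1.62, against -0.03 over all genes, and the members ran from -4.21 for Cmpk2 to 0.81 for Eif2ak2. For 40 members every Model tumour lay below every Control lung, as for 36.6% of all genes, and for 1 member every Model tumour lay above, as for 32.4%.

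In Proline tumours all 45 members had a log2 fold change above 0 against Model tumours, but none passed the adjusted threshold by edgeR. At the same threshold 0.00% of all genes were called higher, and 49.5% had a log2 fold change above 0. The members' median was 1.19, with 0.79 to 1.45 when 1 library was left out, against 0.00 over all genes, and their range was 0.12 for Eif2ak2 to 2.56 for Zbp1. At an unadjusted p under 0.05, 38 members were higher, as were 7.19% of all genes, and the smallest adjusted p of a member was 0.113, for Cmpk2. For 28 members every Proline tumour lay above every Model tumour, as for 8.77% of all genes. DESeq2 called 28 members higher (2.32% of all genes), whereas limma with library weights on voom values (0.0604%) and limma on log2(FPKM + 1) (0.00%) called 0. With Proline 3 left out, edgeR called 25 members higher, against 0.768% of all genes. Leaving out each of the other 11 libraries in turn gave 0 members.

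In Taurine tumours the members' log2 fold changes against Model tumours lay on both sides of 0, between -0.99 for Ifit1bl1 and 0.49 for Zbp1. None passed by edgeR, where 0.00% of all genes were called in either direction, and the other tools also called 0 members: DESeq2, with 0.201% of all genes higher and 0.222% lower, weighted voom values in limma, with 0.00%, and limma on the FPKM scale, with 0.00474% higher and 0.00% lower. No member reached an unadjusted p under 0.05 by edgeR, as 3.29% of all genes did upward and 3.50% downward. The log2 fold change was above 0 for 12 members, against 50.5% of all genes, their median was -0.11, with -0.29 to -0.04 when 1 library was left out, and the smallest adjusted p was 0.793, for Ifitm3. With the smallest p in each direction, Zbp1, Cmpk2, Ifih1, Oasl1 and Eif2ak2 stood at 0.49, 0.21, 0.16, 0.20 and 0.07, and Ifitm3, Rsad2, Sp100, Tor3a and Trim25 at -0.23, -0.57, -0.25, -0.09 and -0.10. Every Taurine tumour lay below every Model tumour for 2 members, Ifit2 and Isg20, as for 6.16% of all genes.

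Taurine against Proline tests whether the 2 treatments differed. All 45 members were below 0, as were 48.6% of all genes, with a median of -1.22 against 0.00 over all genes, and none passed by edgeR, which called 3 genes lower (0.0129%) and 7 higher (0.0302%). At an unadjusted p under 0.05, 43 members were lower, against 7.44% of all genes, and the smallest adjusted p was 0.0947, for Ifi27. For 30 members every Taurine tumour lay below every Proline tumour, as for 7.79% of all genes. DESeq2 called 36 members lower (2.98% of all genes), limma called 0 on weighted voom values (0.0819%) and 0 on the FPKM scale (0.0331%), and edgeR without Proline 3 called 29 (1.01%). The comparisons against Model tumours share the same 3 Model libraries, as this one shares the Proline libraries.

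**Figure D1:**
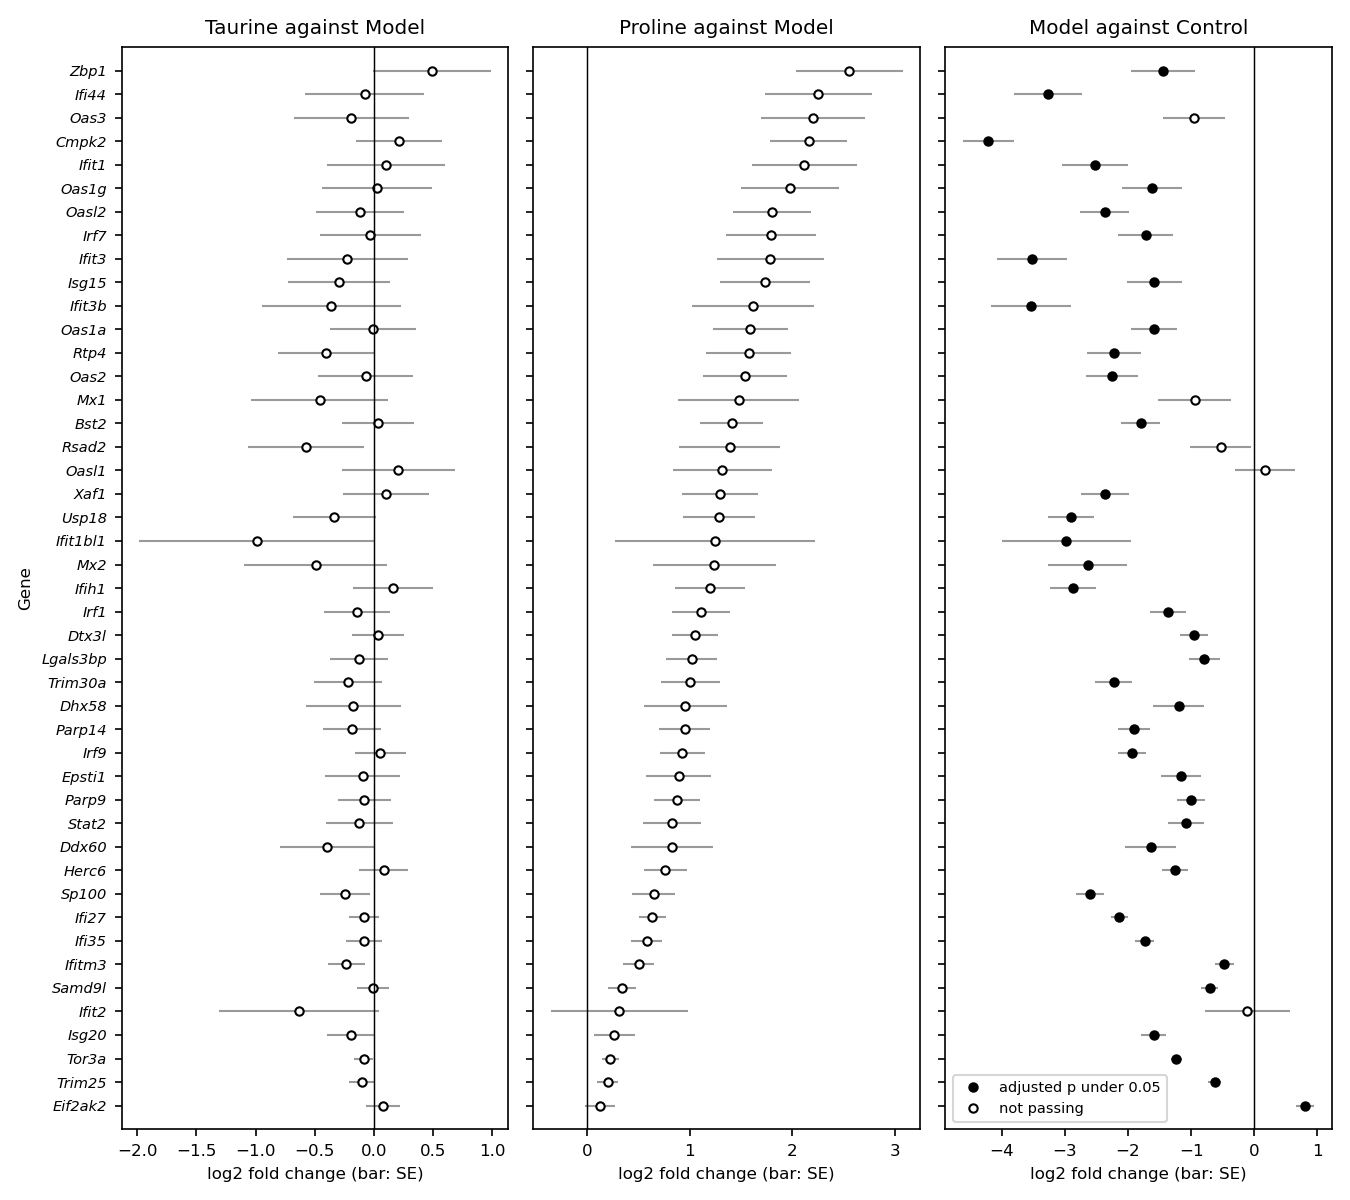
Log2 fold change of each of the 45 members by edgeR in Taurine against Model, Proline against Model and Model against Control, on the horizontal axes, with bars of 1 standard error derived from the test statistic. Filled points passed the adjusted threshold: 40 in Model against Control and 0 in the other panels, where the Proline points all lie to the right of 0 with a median of 1.19.

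The 3 Proline tumours did not carry the antiviral genes to the same extent. Of the 9 tumours, Proline 2 had the highest level of 40 members, as for 11.1% of all genes, and Proline 1 of the other 5, as for 15.2%. The members' median log2 ratio to the Model mean was 1.11, 1.48 and 0.23 in Proline 1, Proline 2 and Proline 3. It was 0.16, -0.26 and -0.21 in the Taurine tumours and 1.32, 1.56 and 1.69 in the Control lungs. At least 2 times the Model mean was reached by 30, 35 and 2 members in Proline 1, Proline 2 and Proline 3, against 12.2%, 11.3% and 8.23% of all genes, and by 0 members in every Taurine tumour. Proline 2 exceeded Proline 3 in all 45 members, as for 48.8% of all genes. The members' median ratio was 2.26, from Samd9l at the low end to Zbp1 at the high end. By at least 2-fold it did so for 29 members, as for 3.22% of all genes. The level of the lowest Control lung was met by 20, 26 and 3 members in Proline 1, Proline 2 and Proline 3, where 55.7%, 56.5% and 55.7% of all genes met it, and by 1 to 5 members in the Model tumours, where 56.3% to 57.4% did. Taurine 1 lay above the highest Model tumour for 20 members (24.4% of all genes) and Taurine 3 for 2 (29.4%), while Taurine 2 did so for 0 (24.7%). The lowest level among the 9 tumours was in Taurine 2 for 16 members, as for 9.47% of all genes, and in Taurine 3 for 14, as for 12.6%.

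**Figure D2:**
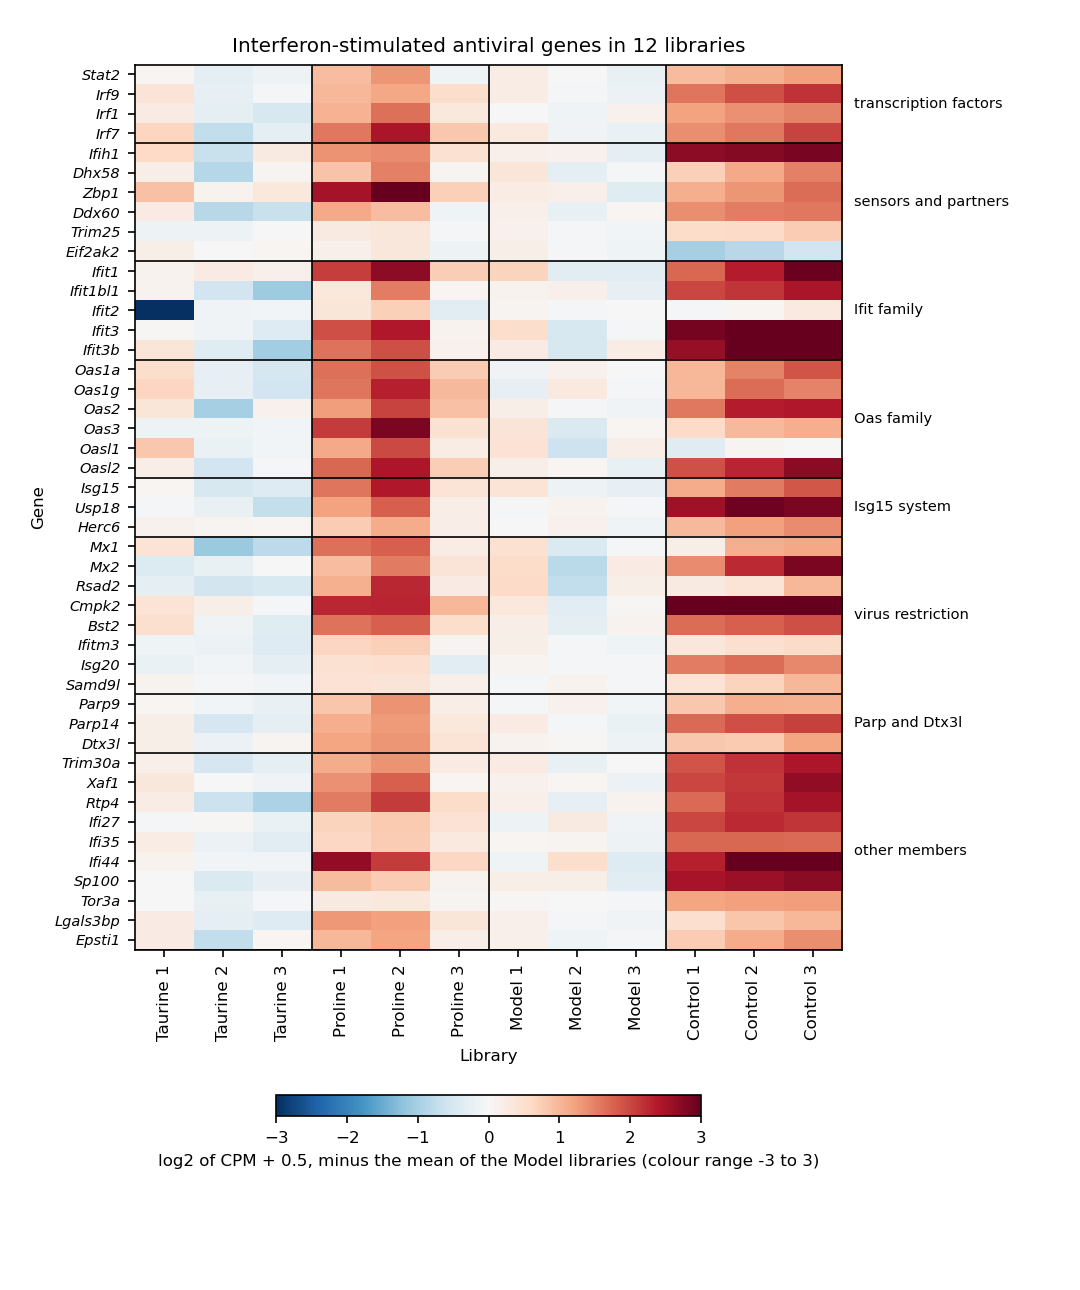
Level of the 45 members (rows, grouped by role) in the 12 libraries (columns), as log2 of CPM + 0.5 minus the mean of the Model libraries, with red above and blue below that mean. Proline 1 and Proline 2 are red over nearly all rows, with medians of 1.11 and 1.48, Proline 3 is close to white with a median of 0.23, and the dark blue cell is Ifit2 in Taurine 1.

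The 4 transcription factors among the members fell together in Model against Control, 4 of 4, beside 29.3% of all genes. Their median was -1.54. Irf7, which drives the interferon alpha genes and is itself induced, was measured at 17.2, 6.32 and 8.71 CPM in Taurine tumours, 33.4, 61.2 and 19.3 CPM in Proline tumours, 13.5, 10.1 and 9.38 CPM in Model tumours and 29.5, 33.4 and 45.6 CPM in Control lungs. Every Proline tumour lay above every Model tumour, Proline 2 at the top, while the Taurine and Model tumours overlapped. Its log2 fold change was -1.72 (SE 0.44, adjusted p = 0.00589) in Model against Control, 1.79 (SE 0.44, adjusted p = 0.191) in Proline against Model and -0.03 (SE 0.43, adjusted p = 1) in Taurine against Model. Irf9, a DNA-binding subunit of the complex that type I interferons activate, had 25.7, 16.3 and 18.9 CPM in Taurine tumours, 39.3, 44.3 and 28.1 CPM in Proline tumours, 22.6, 19.04 and 17.05 CPM in Model tumours and 60.3, 75.2 and 88.3 CPM in Control lungs. All Proline tumours were above all Model tumours and below all Control lungs. The change in Model against Control was -1.93 (SE 0.22, adjusted p = 1.91e-05), and that in Proline against Model was 0.93 (SE 0.22, adjusted p = 0.177). Stat2, which carries the activating domain of that complex, had 38.6, 30.7 and 33.6 CPM in Taurine tumours, 71.2, 93.6 and 33.9 CPM in Proline tumours, 43.1, 37.1 and 31.96 CPM in Model tumours and 71.6, 78.1 and 88.3 CPM in Control lungs. Proline 3 lay among the Model tumours, and Proline 1 and Proline 2 were far above them. Stat2 fell in Model against Control by edgeR, at -1.09 (SE 0.28, adjusted p = 0.00683), and stood at 0.83 (SE 0.28, adjusted p = 0.264) in Proline against Model. Irf1, a factor induced by interferon gamma, had 59.7, 41.9 and 36.4 CPM in Taurine tumours, 105, 159 and 63.5 CPM in Proline tumours, 50.4, 46.2 and 55.6 CPM in Model tumours and 117, 132 and 143 CPM in Control lungs. Proline 2 exceeded every Control lung, and no Proline tumour overlapped the Model tumours. Irf1 changed by -1.36 (SE 0.28, adjusted p = 0.00159) in Model against Control and stood at 1.11 (SE 0.28, adjusted p = 0.195) in Proline against Model. In Taurine against Model, Irf9, Stat2 and Irf1 were at 0.05, -0.12 and -0.14.

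Of the 6 sensors of nucleic acid and their partners, 5 fell and 1 rose in Model against Control, beside 29.3% and 28.8% of all genes. The exception was Eif2ak2, the kinase PKR, which stops translation when it binds double-stranded RNA. It had 49.3, 43.9 and 45.2 CPM in Taurine tumours, 48.3, 55.7 and 39.2 CPM in Proline tumours, 49.7, 42.1 and 39.6 CPM in Model tumours and 21.7, 24.2 and 29.2 CPM in Control lungs. Every tumour of every group lay above every Control lung, and the tumour groups overlapped. Eif2ak2 changed by 0.81 (SE 0.15, adjusted p = 6.30e-04) in Model against Control and had the smallest change of the members in Proline against Model, 0.12 (SE 0.14, adjusted p = 0.784). Zbp1, a sensor of left-handed nucleic acid that can trigger cell death, had 8.86, 5.03 and 5.80 CPM in Taurine tumours, 28.4, 46.3 and 7.92 CPM in Proline tumours, 5.43, 5.16 and 3.46 CPM in Model tumours and 10.3, 12.3 and 15.8 CPM in Control lungs. Proline 1 and Proline 2 exceeded every Control lung, and Proline 3 stood above every Model tumour but below Taurine 1. Its change in Proline against Model, 2.56 (SE 0.52, adjusted p = 0.145), was the largest of the members, beside -1.45 (SE 0.50, adjusted p = 0.0285) in Model against Control and 0.49 (SE 0.50, adjusted p = 0.909) in Taurine against Model. Ifih1, the sensor MDA5 for long double-stranded RNA, had 7.59, 2.86 and 5.96 CPM in Taurine tumours, 13.01, 13.7 and 6.89 CPM in Proline tumours, 5.40, 5.39 and 3.90 CPM in Model tumours and 33.6, 35.8 and 38.2 CPM in Control lungs. No tumour reached the lowest Control lung. The change was -2.87 (SE 0.36, adjusted p = 3.88e-05) in Model against Control. Trim25, a ubiquitin ligase that assists RNA sensing, had 74.8, 75.4 and 83.8 CPM in Taurine tumours, 101, 106 and 81.5 CPM in Proline tumours, 91.6, 80.3 and 79.6 CPM in Model tumours and 122, 124 and 142 CPM in Control lungs. All tumours lay below all Control lungs, and its change in Model against Control was the smallest in size of the 6. Dhx58, Ddx60 and Trim25 fell by edgeR in Model against Control at -1.20, -1.64 and -0.62, and stood at 0.96, 0.82 and 0.20 in Proline against Model.

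The Ifit family acts against viral RNA and its translation. In Model against Control 4 of the 5 measured genes fell, beside 29.3% of all genes. Ifit3 had 5.22, 4.63 and 3.75 CPM in Taurine tumours, 20.7, 28.7 and 5.51 CPM in Proline tumours, 7.57, 3.47 and 4.86 CPM in Model tumours and 40.02, 56.4 and 85.8 CPM in Control lungs. Control lungs were the highest in each case, and Proline 3 lay within the range of the Model tumours. Its change was -3.52 (SE 0.55, adjusted p = 2.26e-04) in Model against Control and 1.79 (SE 0.52, adjusted p = 0.218) in Proline against Model. Ifit3b, whose coding sequence matched that of Ifit3 at 99.1% of 1209 aligned bases, had 2.31, 1.18 and 0.559 CPM in Taurine tumours, 6.22, 7.86 and 1.90 CPM in Proline tumours, 2.10, 1.06 and 2.05 CPM in Model tumours and 12.8, 20.2 and 27.1 CPM in Control lungs. The order of the groups was that of Ifit3, and Ifit3b changed by -3.53 (SE 0.64, adjusted p = 5.98e-04) in Model against Control. Reads from such near copies can be divided between both genes by the authors' counting, so the split between them is uncertain. Ifit1 had 3.10, 3.45 and 3.25 CPM in Taurine tumours, 13.6, 21.01 and 5.11 CPM in Proline tumours, 4.81, 2.19 and 2.13 CPM in Model tumours and 10.6, 16.7 and 25.4 CPM in Control lungs. It changed by -2.53 (SE 0.52, adjusted p = 0.00152) in Model against Control, and all Proline tumours lay above all Model tumours. Ifit1bl1, a relative of Ifit1 at 76.0% coding identity, had 0.629, 0.2 and 0 CPM in Taurine tumours, 0.804, 2.55 and 0.585 CPM in Proline tumours, 0.617, 0.660 and 0.379 CPM in Model tumours and 3.67, 4.15 and 5.24 CPM in Control lungs, the lowest levels of the family. The call of Ifit1bl1 in Model against Control, -2.98 (SE 1.02, adjusted p = 0.0273), was lost when any 1 of 5 libraries was left out, Control 2, Control 3 or any Model tumour, with adjusted p between 0.0537 and 0.0852.

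Ifit2 had 1 Taurine library far below all other libraries. It had 1.81, 27.7 and 27.8 CPM in Taurine tumours, 38.4, 48.6 and 23.6 CPM in Proline tumours, 31.4, 28.2 and 29.3 CPM in Model tumours and 28.7, 31.01 and 36.2 CPM in Control lungs. Taurine 1 stood at 1.81 CPM, from 124 counts, and the other 11 libraries at 23.6 to 48.6 CPM. The change of Ifit2 was -0.63 (SE 0.67, adjusted p = 0.913) in Taurine against Model, 0.31 (SE 0.67, adjusted p = 0.909) in Proline against Model and -0.11 (SE 0.67, adjusted p = 0.902) in Model against Control. Because all libraries were fitted together, the Taurine 1 value enters the SE and p of Ifit2 in every comparison, also those without Taurine. By a rule made after this value was seen, a level less than 0.1 times that of every other library where each of those had at least 10 CPM, Taurine 1 held 2 genes, Ifit2 and Eme2, Model 1 and Control 2 held 1 each, and the other 9 libraries held 0. The other Ifit genes in Taurine 1 lay within or close to the range of the other Taurine and Model tumours.

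Of the 6 Oas genes, 4 fell and 2 did not pass in Model against Control, where 29.3% of all genes fell. Oas enzymes make short oligoadenylates that activate the ribonuclease RNase L. Oas2 had 7.44, 2.58 and 6.29 CPM in Taurine tumours, 14.2, 24.7 and 10.8 CPM in Proline tumours, 6.44, 5.45 and 5.22 CPM in Model tumours and 17.9, 31.1 and 32.4 CPM in Control lungs. All Proline tumours lay above all Taurine and Model tumours, and Taurine 2 was the lowest library. Its change was -2.25 (SE 0.42, adjusted p = 7.36e-04) in Model against Control, 1.54 (SE 0.41, adjusted p = 0.202) in Proline against Model and -0.07 (SE 0.40, adjusted p = 1) in Taurine against Model. Oas3 had 2.72, 2.71 and 2.86 CPM in Taurine tumours, 14.7, 24.5 and 4.35 CPM in Proline tumours, 4.15, 2.12 and 3.19 CPM in Model tumours and 4.80, 6.45 and 7.11 CPM in Control lungs. Proline 1 and Proline 2 exceeded every Control lung by at least 2-fold. Oas3 did not pass in Model against Control, -0.96 (SE 0.49, adjusted p = 0.116), and stood at 2.20 (SE 0.50, adjusted p = 0.176) in Proline against Model. Oasl2, a ubiquitin-like relative, had 16.8, 9.65 and 14.1 CPM in Taurine tumours, 49.2, 79.99 and 24.5 CPM in Proline tumours, 16.5, 15.2 and 12.3 CPM in Model tumours and 56.2, 73.2 and 98.2 CPM in Control lungs. Every Proline tumour was above every Model tumour, and it fell in Model against Control at -2.37 (SE 0.39, adjusted p = 2.95e-04). Oasl1, which in mice holds back Irf7 translation, had 7.51, 3.46 and 3.85 CPM in Taurine tumours, 9.55, 17.7 and 4.86 CPM in Proline tumours, 5.67, 2.48 and 4.72 CPM in Model tumours and 3.08, 4.38 and 4.03 CPM in Control lungs. Control and Model overlapped, with a change of 0.17 (SE 0.48, adjusted p = 0.788). Oas1a and Oas1g, at 96.7% coding identity, fell by edgeR at -1.59 and -1.62 in Model against Control and stood at 1.59 and 1.98 in Proline against Model.

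All 3 genes of the Isg15 system fell in Model against Control, as did 29.3% of all genes. Isg15, which is attached to other proteins in the manner of ubiquitin, had 6.93, 4.60 and 4.94 CPM in Taurine tumours, 21.2, 37.3 and 9.0002 CPM in Proline tumours, 8.90, 5.88 and 5.48 CPM in Model tumours and 14.8, 20.4 and 25.5 CPM in Control lungs. Proline 2 was the highest of all 12 libraries, and every Proline tumour lay above every Model tumour, Proline 3 by the least. The change was -1.58 (SE 0.44, adjusted p = 0.00901) in Model against Control, 1.74 (SE 0.44, adjusted p = 0.195) in Proline against Model and -0.30 (SE 0.43, adjusted p = 0.954) in Taurine against Model. Usp18, which removes Isg15 and damps signalling at the receptor, had 4.52, 3.89 and 2.60 CPM in Taurine tumours, 11.2, 17.2 and 5.39 CPM in Proline tumours, 4.44, 5.004 and 4.44 CPM in Model tumours and 29.3, 38.5 and 35.8 CPM in Control lungs. No tumour reached the lowest Control lung, 29.3 CPM. Usp18 changed by -2.90 (SE 0.37, adjusted p = 4.35e-05) in Model against Control and stood at 1.28 (SE 0.35, adjusted p = 0.205) in Proline against Model. Herc6, the main Isg15 ligase of the mouse, changed by -1.25 (SE 0.21, adjusted p = 3.60e-04) in Model against Control, and no Proline tumour overlapped the Model tumours.

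**Figure D3:**
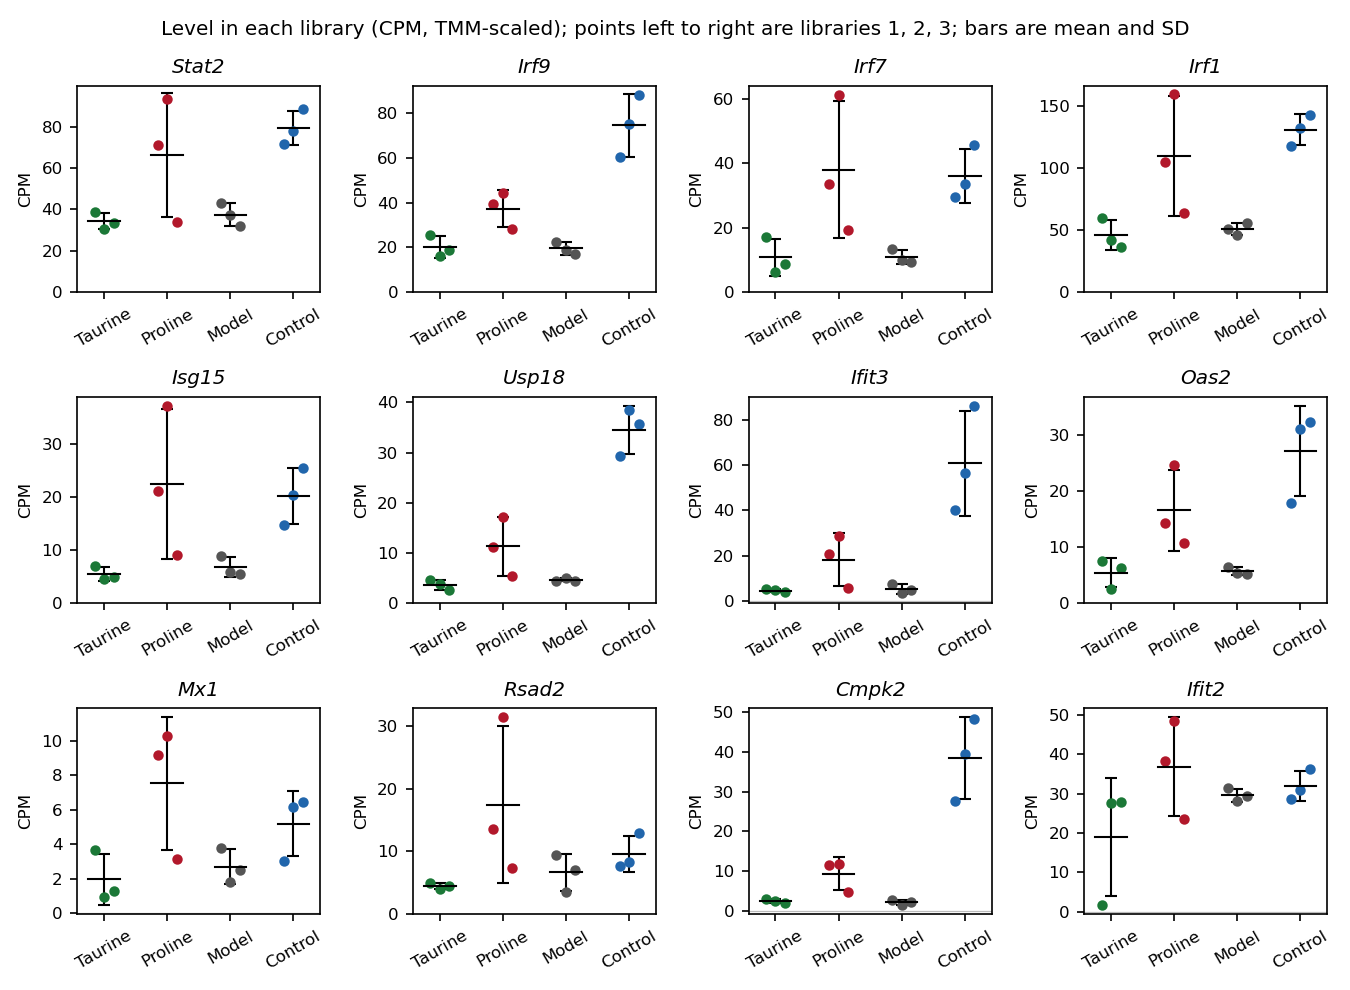
Level in CPM (vertical axes, starting at or just below 0) of 12 members in each library, in the order Taurine, Proline, Model and Control, with the mean and SD of each group as black bars. Irf7, Isg15 and Oas2 separate all Proline from all Model tumours, Usp18 and Cmpk2 are highest in Control lungs, and 1 Taurine point of Ifit2 stands at 1.81 CPM.

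Of the 8 genes of virus restriction, 6 fell in Model against Control, beside 29.3% of all genes. Cmpk2, a mitochondrial nucleotide kinase encoded next to Rsad2, had 2.87, 2.38 and 1.97 CPM in Taurine tumours, 11.6, 11.8 and 4.56 CPM in Proline tumours, 2.67, 1.49 and 2.08 CPM in Model tumours and 27.7, 39.4 and 48.2 CPM in Control lungs. Control lungs were far above all tumours, and every Proline tumour was above every Taurine and Model tumour. Its change of -4.21 (SE 0.40, adjusted p = 4.64e-06) was the largest fall of the 45, and that in Proline against Model was 2.16 (SE 0.37, adjusted p = 0.113). Rsad2, the enzyme viperin, had 4.99, 4.05 and 4.41 CPM in Taurine tumours, 13.5, 31.5 and 7.40 CPM in Proline tumours, 9.44, 3.51 and 7.04 CPM in Model tumours and 7.63, 8.38 and 12.9 CPM in Control lungs. Model and Control overlapped, and Proline 3 lay within the Model range. Rsad2 did not pass in Model against Control, -0.53 (SE 0.49, adjusted p = 0.376), nor in Proline against Model, 1.39 (SE 0.49, adjusted p = 0.273), or Taurine against Model, -0.57 (SE 0.49, adjusted p = 0.875). Mx1, a gene for a dynamin-like GTPase, had 3.64, 0.939 and 1.30 CPM in Taurine tumours, 9.18, 10.3 and 3.14 CPM in Proline tumours, 3.78, 1.81 and 2.51 CPM in Model tumours and 3.02, 6.14 and 6.44 CPM in Control lungs. Model and Control overlapped here too, at -0.95 (SE 0.58, adjusted p = 0.189), and Mx1 stood at 1.48 (SE 0.59, adjusted p = 0.317) in Proline against Model. Mx2, at 79.1% coding identity to Mx1, fell in Model against Control by edgeR, -2.64 (SE 0.63, adjusted p = 0.00388).

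Ifitm3, a membrane protein that blocks virus entry, was the most abundant member per length in every group, at 261 ± 28.5 FPKM in Taurine tumours, 436 ± 93.1 FPKM in Proline tumours, 315 ± 41.96 FPKM in Model tumours and 403 ± 40.2 FPKM in Control lungs (SD, n = 3 each). Bst2, which tethers budding virus, came next in all 4 groups, at 32.96 ± 11.1 FPKM in Taurine tumours, 85.6 ± 34.3 FPKM in Proline tumours, 32.9 ± 5.68 FPKM in Model tumours and 106 ± 11.2 FPKM in Control lungs. Ifitm3 had 249.7, 239 and 206 CPM in Taurine tumours, 422, 445 and 288 CPM in Proline tumours, 307, 261 and 248 CPM in Model tumours and 343, 384 and 406 CPM in Control lungs, and its Model tumours were all below its Control lungs. Ifitm3 changed in Model against Control by -0.47 (SE 0.15, adjusted p = 0.0209), and Bst2 by -1.80 (SE 0.31, adjusted p = 4.62e-04). Isg20, an exonuclease of RNA, and Samd9l, a restriction factor of poxviruses, fell at -1.59 and -0.70 by edgeR.

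The 3 genes Parp9, Parp14 and Dtx3l fell in Model against Control, at -1.002, -1.91 and -0.96, as did 29.3% of all genes. Parp9 and Dtx3l form an enzyme complex for ADP-ribose and ubiquitin transfer, and their genes lie head to head. For all 3, every Proline tumour lay above every Model tumour, as for 8.77% of all genes. Dtx3l had 17.2, 13.4 and 15.99 CPM in Taurine tumours, 35.2, 38.9 and 20.3 CPM in Proline tumours, 16.4, 15.6 and 13.5 CPM in Model tumours and 26.8, 26.5 and 34.99 CPM in Control lungs. It stood at 1.05 (SE 0.22, adjusted p = 0.148) in Proline against Model by edgeR. Parp9 and Dtx3l overlap on opposite strands in the table, and whether the counting used strand is not given in the sources used here, so their shared reads cannot be assigned. In all, 17 of the 45 members overlap another gene of the table, among them Irf9 with Rnf31, Irf7 with Phrf1 and Rtp4 with Masp1.

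The remaining 10 members all fell in Model against Control, beside 29.3% of all genes, with changes between -3.27 and -0.79. Ifi44, an interferon-induced protein of the cytoplasm, had 1.71, 1.45 and 1.44 CPM in Taurine tumours, 12.4, 8.20 and 2.62 CPM in Proline tumours, 1.36, 2.42 and 1.07 CPM in Model tumours and 9.71, 17.1 and 19.95 CPM in Control lungs. Proline 1 was the highest tumour, at 12.4 CPM, and Ifi44 changed by -3.27 (SE 0.54, adjusted p = 3.29e-04) in Model against Control. Ifi27, a small membrane protein, had 28.4, 30.6 and 25.9 CPM in Taurine tumours, 47.8, 51.6 and 40.4 CPM in Proline tumours, 26.7, 35.9 and 27.4 CPM in Model tumours and 121, 143 and 132 CPM in Control lungs. Its Proline tumours were close together and above all Taurine and Model tumours. Ifi27 changed by -2.14 (SE 0.13, adjusted p = 1.60e-07) in Model against Control and stood at 0.63 (SE 0.13, adjusted p = 0.145) in Proline against Model and -0.72 (SE 0.13, adjusted p = 0.0947) in Taurine against Proline. Sp100, a protein of nuclear bodies, had 21.7, 16.03 and 18.4 CPM in Taurine tumours, 43.02, 37.6 and 23.6 CPM in Proline tumours, 24.7, 24.6 and 17.2 CPM in Model tumours and 124, 133 and 145 CPM in Control lungs. Tor3a, an ATPase of the endoplasmic reticulum, had 30.7, 25.9 and 28.9 CPM in Taurine tumours, 36.6, 37.7 and 32.1 CPM in Proline tumours, 30.8, 30.6 and 29.5 CPM in Model tumours and 69.005, 71.4 and 73.5 CPM in Control lungs. In both genes all tumours lay below all Control lungs, and Sp100 fell at -2.60 and Tor3a at -1.23 in Model against Control. Trim30a, Xaf1, Rtp4, Ifi35, Lgals3bp and Epsti1 fell at -2.23, -2.36, -2.22, -1.74, -0.79 and -1.16. In Proline against Model the 10 ran between 0.23 for Tor3a and 2.26 for Ifi44. For 8 of them every Proline tumour lay above every Model tumour, as for 8.77% of all genes.

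The other genes of the pathway were counted in lists of their own in Model against Control, beside 29.3% of all genes called lower and 28.8% called higher. Of 10 receptor and Jak-Stat genes, 8 fell and 1, the kinase Jak1, rose, at 0.19 (SE 0.06, adjusted p = 0.0219). Ifnar2 fell at -1.44 (SE 0.10, adjusted p = 2.40e-07) and Ifngr1, a chain of the interferon gamma receptor, at -1.11 (SE 0.09, adjusted p = 1.38e-06), while Ifnar1 did not pass, at -0.21 (SE 0.10, adjusted p = 0.108).

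Of 13 genes listed for the induction of interferon, 12 were matched by name, and 3 of these rose and 3 fell in Model against Control, shares close to those over all genes. The adaptor Sting1 rose at 1.45 (SE 0.12, adjusted p = 1.24e-06) and the RNA sensor Tlr7 at 1.90 (SE 0.20, adjusted p = 1.01e-05), and the sensor Tlr3 fell at -2.23 (SE 0.22, adjusted p = 5.88e-06) and the factor Irf3 at -1.21 (SE 0.13, adjusted p = 1.41e-05). Of 8 negative regulators, 2 rose, the phosphatase Ptpn2 and the exonuclease Trex1, and 3 fell, of which Irf2 and Pias1 had the smallest p. Of 32 other interferon-stimulated genes tested, 19 fell and 5 rose, with Mndal at -2.96 (SE 0.22, adjusted p = 6.08e-07) and Mov10, an RNA helicase, at 1.55 (SE 0.08, adjusted p = 5.52e-08). No gene of these lists passed in the comparisons between tumour groups by edgeR. Over all genes 0.00% passed against Model tumours, and 0.0302% higher and 0.0129% lower in Taurine against Proline. Above 0 in Proline against Model were 29 of the 32 other interferon-stimulated genes, against 49.5% of all genes. For 18 of them every Proline tumour lay above every Model tumour, as for 8.77% of all genes. Above 0 were also 7 of 10 receptor and Jak-Stat genes, 9 of 12 induction genes and 6 of 8 negative regulators. Of 14 interferon genes listed, 6 were matched by name and measured, and the other 8 were not analysed here. The 6 were near 0 and only Ifng and Ifnz passed the filter on low counts: Ifng did not exceed 1.17 CPM in any library, Ifnz did not exceed 0.665 CPM, and Ifnb1 had counts in only 2, Taurine 2 and Proline 1. In Model against Control neither passed, with Ifng at -2.68 (SE 1.64, adjusted p = 0.187) and Ifnz at 1.18 (SE 0.66, adjusted p = 0.153). Gbp2, Irgm1 and H2-K1, which respond to interferon gamma, fell in Model against Control at -2.25, -1.22 and -2.95. The guanylate-binding protein Gbp2 had 47.6, 12.5 and 15.4 CPM in Taurine tumours, 180.1, 288 and 18.4 CPM in Proline tumours, 20.95, 12.9 and 15.5 CPM in Model tumours and 65.4, 74.9 and 94.5 CPM in Control lungs, and Proline 1 and Proline 2 exceeded every Control lung.

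Of the immune marker lists, the cytotoxic and NK, T cell, B cell, neutrophil and monocyte sums were higher in Proline 1 and Proline 2 than in Proline 3. The macrophage and conventional dendritic sums were not higher in Proline 1 than in Proline 3. The plasmacytoid dendritic sum was also lower in Proline 1, but it holds Cox6a2, which skeletal muscle also expresses. Skeletal muscle markers summed to 1.64 CPM in Proline 1 and 368 CPM in Proline 3. Siglech, 1 of the 4 plasmacytoid markers, was low in both tumours, and no order between them is read from it. In Proline against Model the 4 markers ran from -0.63 for Ccr9 to 1.13 for Cox6a2, and none passed. The summed level of 6 cytotoxic and NK cell markers was 10.3, 6.28 and 7.62 CPM in Taurine tumours, 49.95, 38.98 and 10.8 CPM in Proline tumours, 5.89, 3.79 and 3.98 CPM in Model tumours and 82.9, 84.02 and 91.8 CPM in Control lungs. At 0 in this list were Klrk1 in Taurine 2 and Ncr1 in Model 1 and Model 2. Of these 6 markers, all 6 had a log2 fold change above 0 in Proline against Model, beside 49.5% of all genes, and 0 passed. All 6 fell in Model against Control, beside 29.3% of all genes. The sum of 5 T cell markers was 2.34, 0.646 and 0.605 CPM in Taurine tumours, 22.6, 11.99 and 2.60 CPM in Proline tumours, 12.6, 6.81 and 1.85 CPM in Model tumours and 52.5, 57.2 and 63.6 CPM in Control lungs. Cd5 was at 0 in all 3 Taurine tumours and Model 3, Cd3e in Taurine 2 and Taurine 3, and Cd3d in Taurine 2. Model 1, with a T cell sum of 12.6 CPM, was close to Proline 2 in this list. Model 1 also had the highest thymocyte marker sum of the tumours, 5.06 CPM, followed by Proline 2 with 2.03 CPM. The part of thymus tissue in these T cell sums was not tested.

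Neutrophil markers, 6 in number, summed to 54.1, 49.2 and 34.5 CPM in Taurine tumours, 172, 154 and 46.1 CPM in Proline tumours, 82.5, 33.3 and 58.2 CPM in Model tumours and 81.1, 95.6 and 119 CPM in Control lungs, and Ly6g was at 0 in 5 libraries. Monocyte markers, 3 in number with none at 0, summed to 46.6, 25.5 and 30.5 CPM in Taurine tumours, 65.3, 104 and 39.1 CPM in Proline tumours, 35.9, 32.2 and 25.8 CPM in Model tumours and 82.6, 102 and 109.6 CPM in Control lungs. The 7 macrophage markers, none at 0, summed to 1125 to 1457 CPM in Taurine tumours, 1054, 1401 and 1335 CPM in Proline tumours, 1381 to 1487 CPM in Model tumours and 287 to 417 CPM in Control lungs, and 6 of them rose in Model against Control. B cell markers, 4 in number with none at 0, summed to 5.53, 1.57 and 1.24 CPM in Taurine tumours, 5.78, 8.82 and 3.87 CPM in Proline tumours, 8.33, 5.75 and 4.20 CPM in Model tumours and 151, 159 and 178 CPM in Control lungs. Conventional dendritic cell markers, 5 in number, summed to 25.03, 23.96 and 30.2 CPM in Taurine tumours, 19.7, 31.8 and 31.1 CPM in Proline tumours, 29.3, 26.2 and 24.5 CPM in Model tumours and 121, 124 and 128 CPM in Control lungs. In that list 2 markers were at 0 in Model 3, and 1 each in Taurine 2 and Taurine 3. Plasmacytoid dendritic cells are known as strong producers of type I interferon. Their 4 markers summed to 6.99, 4.95 and 67.7 CPM in Taurine tumours, 2.26, 24.9 and 15.1 CPM in Proline tumours, 16.02, 4.82 and 1.75 CPM in Model tumours and 24.3, 21.8 and 22.8 CPM in Control lungs, and Pacsin1 was at 0 in Taurine 3. Cox6a2, which skeletal muscle also expresses, made up 67.4 CPM of the sum in Taurine 3, and Siglech, the defining marker, had 0.453, 0.754 and 0.0605 CPM in Taurine tumours, 0.318, 0.875 and 0.143 CPM in Proline tumours, 0.447, 0.315 and 0.126 CPM in Model tumours and 1.82, 0.913 and 3.13 CPM in Control lungs. In Proline 1 and Proline 2 the cytotoxic, neutrophil and monocyte sums were above those of every Taurine and Model tumour. In Proline 3 the neutrophil sum was within the Model range. Its cytotoxic sum, 10.8 CPM, was above every Model tumour and just above Taurine 1, at 10.3 CPM. The monocyte sum of Proline 3 was above every Model tumour and below Taurine 1. The part of these cells in the antiviral levels was not tested. In bulk tissue, fewer cells of a type and less RNA per cell cannot be told apart, and in Model against Control the tumour and the lung also differ in their epithelium and endothelium, of which all 5 alveolar type 2 and all 5 endothelial markers fell.

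**Figure D4:**
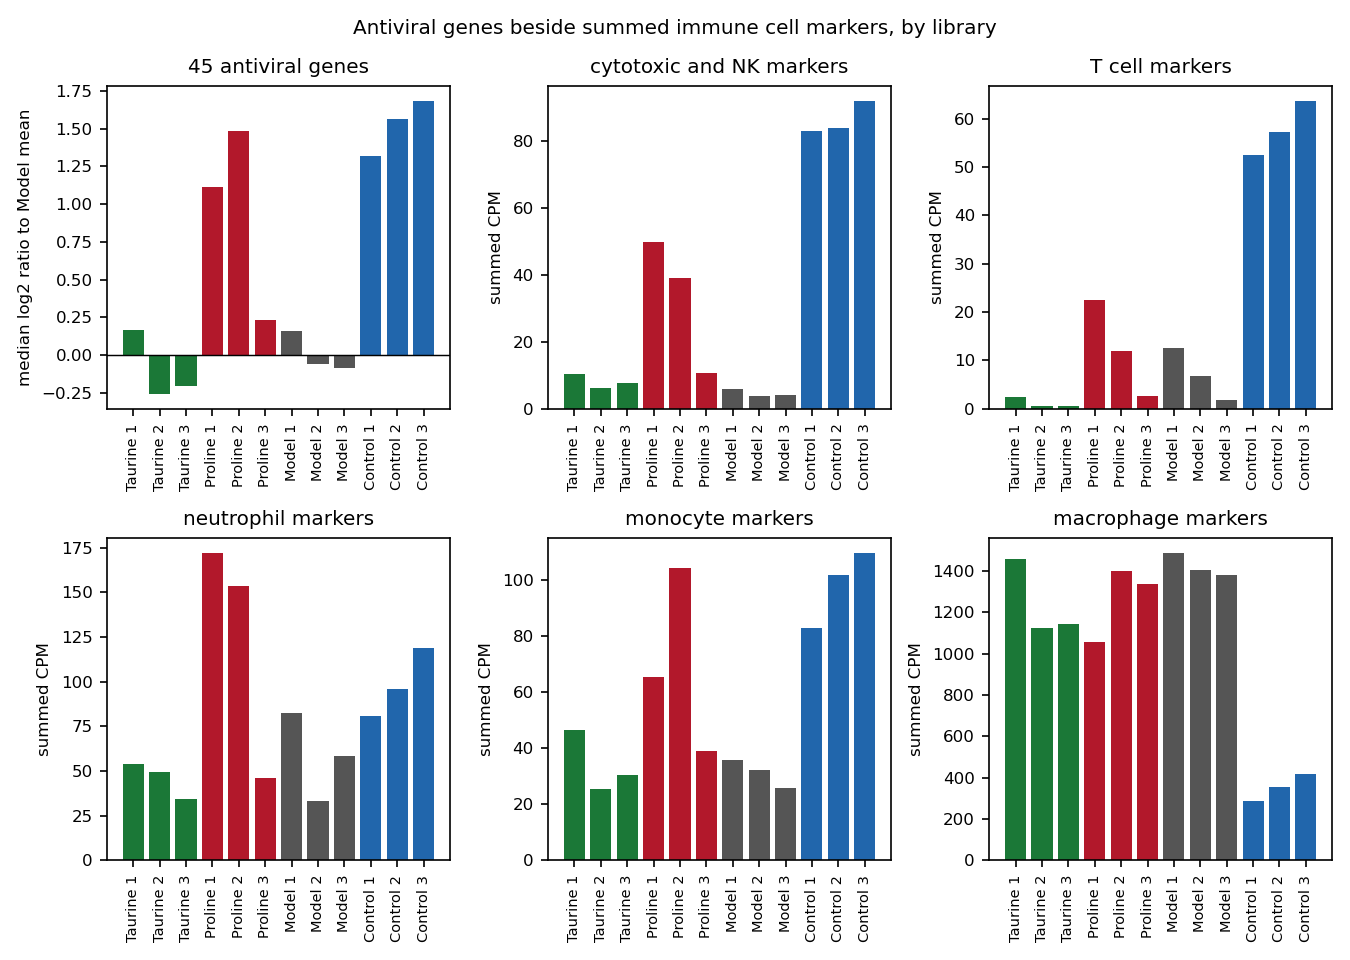
Median log2 ratio of the 45 members to the Model mean (first panel) and summed CPM of 5 immune marker lists (other panels) in each library, in the order Taurine, Proline, Model and Control. Proline 1 and Proline 2 stand above the other 7 tumours in the antiviral, cytotoxic and NK, neutrophil and monocyte panels, whereas the macrophage sums of the tumours lie between 1054 and 1487 CPM.

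Members with and without the response-element core in the promoter differed little in their median change in Model against Control, -1.63 over the 16 with it and -1.48 over the 18 without. In Proline against Model the medians were 1.40 with and 0.97 without, and both sets ran over nearly the same range, 0.12 to 2.20 and 0.20 to 2.26. These are descriptions of the 34 members with a promoter, and no difference between the sets was tested.

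Model 1, Model 2 and Proline 1, the tumours with liver or alveolar markers, were also left out together. With 1 Model tumour left and its spread taken from the other groups, only medians are given for that fit. That tumour, Model 3, carried kidney markers, whose 5 genes summed to 54.2, 60.8 and 11.03 CPM in Taurine tumours, 12.98, 5.77 and 11.3 CPM in Proline tumours, 9.13, 6.37 and 64.1 CPM in Model tumours and 55.1, 56.9 and 54.9 CPM in Control lungs, so the omission does not leave only tumours free of another tissue's markers. In Control lungs most of that sum was Lrp2, at 44.3, 49.9 and 51.1 CPM. Under this omission the median over the 45 was -1.71 in Model against Control and 1.14 in Proline against Model.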

How the data were processed

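RNA from 12 libraries was sequenced by the authors. Per the labels, extraction used an RNeasy kit and the libraries a SMARTER mRNA-seq kit. The deposited table holds, per the file headers, raw counts and FPKM per gene and library. The submitters' processing notes name mm10. The gene positions in the table differ from GRCm38, so none are printed. Neither labels nor headers state the aligner, counter, annotation or strand setting.

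Groups followed the treatment label. Counts were filtered with filterByExpr, scaled by TMM and fitted in edgeR 4.0.16 (R 4.3.3) with all 12 libraries in 1 quasi-likelihood model, whose common biological coefficient of variation was 0.437. P-values were Benjamini-Hochberg adjusted over 23191 genes, and an adjusted p under 0.05 was called. DESeq2 1.42.0, limma 3.58.1 with voom and library weights, and limma on log2 of the authors' deposited FPKM values plus 1 (mean FPKM of at least 0.1) were alternatives. The FPKM-scale folds understate changes of low genes. The procedure was tested on simulated data, for the count-based tools only and with less spread between libraries than in these data.

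Members, pathway lists and marker lists were chosen with earlier results of these data known. Genes given with every library were, per comparison and direction, the 5 members with the largest called change, or up to 5 with the smallest p where none was called, plus 10 members fixed by role (Stat2, Irf9, Irf7, Irf1, Isg15, Usp18, Ifit3, Oas2, Mx1 and Rsad2). Of the pathway lists, Ifng, Ifnb1, Ifnar1, Ifnar2 and up to 2 called genes per list and direction were named, with Gbp2, Irgm1 and H2-K1. Ifit1 and Ifit2 were given in full after their values were seen. Promoters came from the RefSeq table on GRCm38.p6 and coding identity from GENCODE transcripts on that build, aligned with Biopython 1.88. Some genes are not reported here. The sequences shown were picked after the motif search.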

Additional observations from a re-analysis of the deposited data

How the results depend on the processing

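Results were recomputed under 21 alternatives: other tools and scaling, no filter on low counts, other FPKM offsets, only the groups compared, each of the 12 libraries left out, and an omission of Model 1, Model 2 and Proline 1 together that was chosen after seeing the data. No paired analysis was possible because the labels give each library its own code and the groups share no replicate numbers. In Model against Control, members called lower ranged from 34 to 40 over the leave-one-out fits. The share of all genes called was not computed for those fits in that comparison. The added omission leaves 1 Model tumour, so no count of calls is given for it. The median was -1.12 by limma on log2(FPKM + 1), with and without its filter, and otherwise -1.76 to -1.45. In Proline against Model, 28 members were higher by DESeq2 and 25 without Proline 3, and 0 to 25 over the leave-one-out fits. In Taurine against Proline, 36 were lower by DESeq2 and 29 without Proline 3, and 0 to 29 over the leave-one-out fits. Why DESeq2 and edgeR differ was not tested. Medians were taken as stable within the larger SD of library medians of the groups compared, which is wide for Proline (0.643). Of the named members, Ifit1bl1 lost its call in Model against Control in 5 leave-one-out fits. Under the added omission Ifit1bl1, Stat2, Irf7, Irf1 and Isg15 stood at -3.52, -1.31, -1.95, -1.23 and -1.88 in that comparison, and no call is read from that fit. In Proline against Model 24 recomputed values, and in Taurine against Proline 28, gained a call with the same sign. In Taurine against Model the sign of 10 uncalled members turned. Irf9 was at -0.033 by voom and -0.002 by limma on log2(FPKM + 0.1), and Ifih1 at -0.15 by voom. Over the leave-one-out fits Irf9 ran from -0.15 to 0.19, Ifih1 from -0.15 to 0.47, Irf7 from -0.55 to 0.24, Ifit3 from -0.46 to 0.12, Oas2 from -0.36 to 0.27, Oasl1 from -0.23 to 0.46 and Irf1 from -0.37 to 0.003. Under the added omission, Sp100 was at 0.12, Stat2 at 0.10, Irf7 at 0.20, Isg15 at 0.004 and Oas2 at 0.058, and the median of the 45 was 0.01. Depth does not limit most members, but Ifit1bl1 had 0 counts in Taurine 3.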
